A study of Mus musculus with 8 samples.

Results

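The 10 genes described here encode enzymes that make prostaglandins, the enzyme that breaks them down and the receptors that read them. They were taken by symbol from the deposited count table as Ptgs1, Ptgs2, Ptges, Ptgis, Ptgds, Hpgd, Ptger2, Ptger3, Ptger4 and Ptgir. Each symbol had 1 of the 53801 gene rows, and all 10 were among the 16354 genes expressed highly enough to be tested. RNA had been sequenced from CD45- CD31- stromal cells of mouse small intestine, a gate meant to leave out blood cells and endothelium. The cells came from LTβRYFP mice, a line named after the lymphotoxin beta receptor, and were sorted into a YFP+ fraction and a YFP- fraction, with 4 libraries of each. The sources used here do not say what drives YFP in this line, how old the animals were or how many stood behind a library. The study asked how stromal cells that carry YFP differ in RNA from those of the same tissue that do not.

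Prostaglandins are short-lived lipid signals made from arachidonic acid, which phospholipases release from membranes. The cyclooxygenases turn it into prostaglandin H2, terminal synthases turn that into prostaglandin E2, prostacyclin or prostaglandin D2, and each product acts on its own G protein-coupled receptors near the cell that made it. In the intestine, stromal cells are a known source of prostaglandin E2, which acts on epithelial stem cells, muscle and immune cells, and 15-hydroxyprostaglandin dehydrogenase limits how long the signal lasts.

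Sample titles gave the opposite YFP sign to the descriptions and genotypes in all 8 samples. Groups here are those of the description and genotype, so every direction below depends on them and is opposite under the titles. Ltbr, the gene of the lymphotoxin beta receptor, gave no check, at 56.6 ± 1.27 CPM in YFP+, against 52.4 ± 6.85 CPM in YFP- (SD, n = 4 each). Its log2 fold change was 0.12 (SE 0.08, edgeR adjusted p = 0.396). Levels are in CPM, counts relative to each library's total after edgeR's trimmed mean of M values (TMM) scaling. Totals ran from 23404630 to 29829232 counts in YFP+, against 23272858 to 28688906 counts in YFP-. The labels do not tie libraries to separate animals. The p-values therefore describe the spread among libraries, which may be technical. The number was kept as a pair in the comparison, as planned from earlier results of these data. Same-numbered libraries deviated together, although subtracting group means partly builds that contrast in.

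Promoter stretches are shown for both cyclooxygenases, of which Ptgs1 was called between the fractions and Ptgs2 was not, and for Hpgd, the member that was lower in YFP+. Each runs from 100 bases before to 25 bases after the RefSeq transcript start on the gene's own strand, on build GRCm38.p6. The Ptgs1 stretch is chr2:36230326-36230450, that of Ptgs2 is chr1:150099931-150100055 and that of Hpgd is chr8:56294452-56294576, all on the plus strand. Capitals mark matches to 6 searched motifs.
Ptgs1: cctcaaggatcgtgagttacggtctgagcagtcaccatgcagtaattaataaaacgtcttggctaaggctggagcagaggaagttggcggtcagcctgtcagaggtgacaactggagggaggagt
Ptgs2: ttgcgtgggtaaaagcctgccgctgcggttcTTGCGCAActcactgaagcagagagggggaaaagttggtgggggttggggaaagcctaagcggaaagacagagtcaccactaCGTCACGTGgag
Hpgd: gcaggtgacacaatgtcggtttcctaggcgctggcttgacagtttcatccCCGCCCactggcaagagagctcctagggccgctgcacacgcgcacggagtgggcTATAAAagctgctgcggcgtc

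The motifs were the E-box CACGTG, the core TGACG of the cAMP response element, the C/EBP palindrome TTGCGCAA, the CCAAT box CCAAT and the GC box GGGCGG, searched on both strands, and the TATA box TATAAA, searched on the gene's strand. They were chosen with the Ptgs2 sequence in view, and a match describes letters, not a bound site. In windows of 275 bases, from 250 before to 25 after the start, Ptgs2 held the C/EBP palindrome at bases -69 to -62, which 0.18% of the 32841 RefSeq promoter windows of that length held. Its E-box at bases 17 to 22, a motif of 6.68% of windows, overlapped a cAMP response core on the other strand at bases 14 to 18, a motif of 19.7% of windows. A GC box of Ptgs2 lay at bases -170 to -165, before the printed stretch (34.4% of windows). Hpgd held TATAAA at bases 5 to 10, after the annotated start, where 7.97% of windows held that motif anywhere, and a GC box at bases -50 to -45. GENCODE places the start of Hpgd further on, at base 56294585. None of the 6 motifs was found in the Ptgs1 window, and 9 of the 10 genes matched a promoter entry. Among the other 6, Ptges, Ptger3, Ptger4 and Ptgir held GC boxes, Ptger2 and Ptger4 held CCAAT (35.8% of windows), and Ptgds held none of the 6.

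With same-numbered libraries taken as pairs, 4 of the 10 genes were higher in YFP+ and 1 was lower. Ptgs1, Ptges, Ptger2 and Ptger4 rose and Hpgd fell at an adjusted p under 0.05 by edgeR's quasi-likelihood test, while Ptgs2, Ptgis, Ptgds, Ptger3 and Ptgir did not pass. The same rule called 11.5% of all tested genes, 3.65% higher and 7.85% lower. Ptger4 and Hpgd were the 2 genes whose libraries did not overlap between the fractions, which held for 9.64% of all tested genes. Without the pairing, 1 of the 10, Hpgd, still passed, beside 4.26% of all tested genes, and the 4 that were higher had an unadjusted p under 0.05 but did not pass. The median log2 fold change of the 10 was 0.25, and that of all tested genes was 0.01. In bulk RNA, fewer cells of a type and less RNA per cell cannot be told apart for any of these genes.

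**Figure D1:**
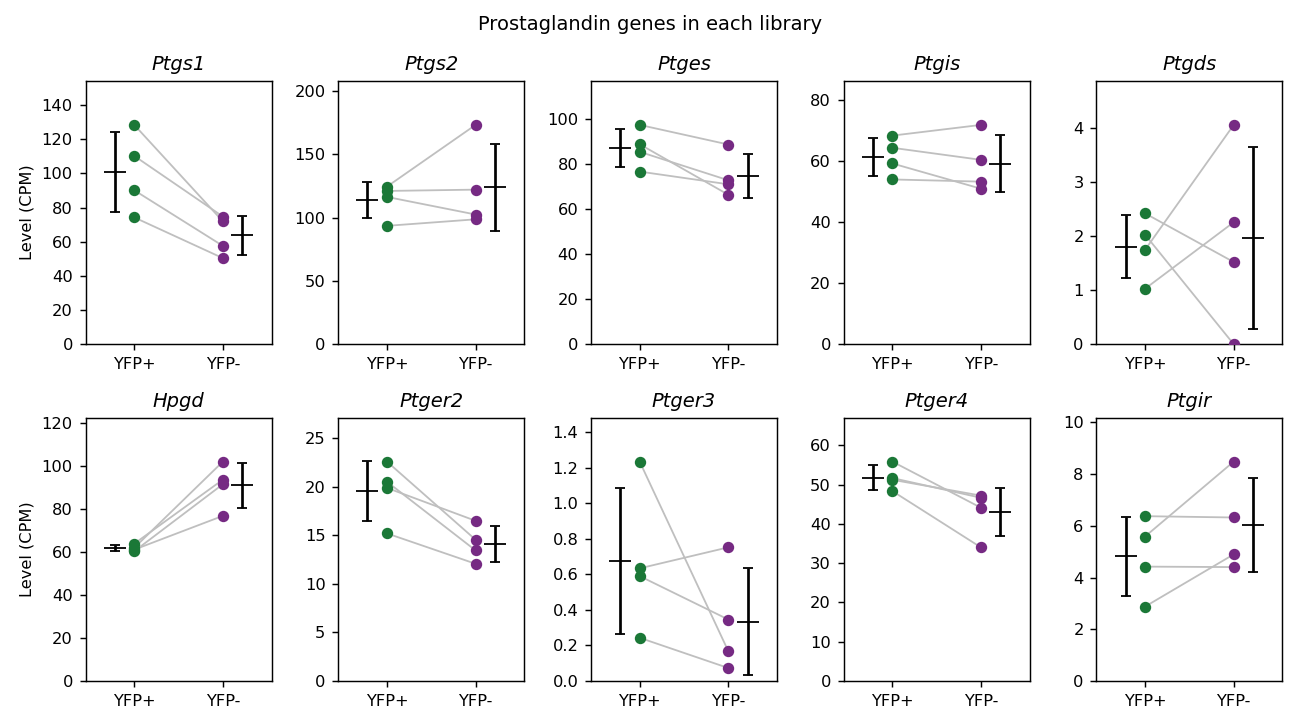
Level of each of the 10 genes in CPM in the 4 YFP+ libraries (left, green) and the 4 YFP- libraries (right, purple), with grey lines joining libraries of the same number and black bars giving the mean ± SD of each group. Ptgs1 was higher in YFP+ in 4 of 4 pairs and Hpgd lower in 4 of 4, while the lines of Ptgs2 run in both directions.

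Of the cyclooxygenase genes, Ptgs1 was higher in YFP+ and Ptgs2 did not pass. Ptgs1, the cyclooxygenase that many tissues express constitutively, is on the plus strand of chromosome 2, from base 36230426 to 36252272 (GRCm38, ENSMUSG00000047250). Its level was 128, 74.2, 90.1 and 110.2 CPM in YFP+ libraries 1 to 4 and 71.9, 50.4, 57.6 and 74.7 CPM in YFP- libraries 1 to 4. Within each number the YFP+ library was the higher, by 0.84, 0.56, 0.65 and 0.56 on the log2 scale, and the groups met only where the lowest YFP+ library, number 2, fell just under the highest YFP- library, number 4. The means were 100.7 ± 23.6 CPM in YFP+, against 63.6 ± 11.6 CPM in YFP- (SD, n = 4 each). This came to a log2 fold change of 0.65 (SE 0.07, 95% interval 0.51 to 0.79, edgeR adjusted p = 1.11e-07), and it ran from 0.59 to 0.69 when each pair was left out. Without the pairing the log2 fold change was 0.66 with an edgeR adjusted p of 0.085, so the call rests on reading the numbers as pairs.

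Ptgs2 encodes the inducible cyclooxygenase, which rises within hours of inflammatory or mechanical stimuli. It is on the plus strand of chromosome 1, from base 150100031 to 150108227 (ENSMUSG00000032487). It was measured at 116, 93.5, 121 and 124 CPM in YFP+ libraries 1 to 4 and 102, 98.7, 122 and 173 CPM in YFP- libraries 1 to 4. The groups overlapped, and YFP- library 4 stood well above the other 7. Ptgs2 did not pass, with means of 114 ± 13.96 CPM in YFP+, against 124 ± 34.3 CPM in YFP- (SD, n = 4 each) and a log2 fold change of -0.10 (95% interval -0.28 to 0.09, edgeR adjusted p = 0.56). The estimate turned positive, at 0.03, without both libraries numbered 4. Early-response genes, a class of rapidly induced transcripts that tissue handling can also raise, were lower in YFP+ in 15 of 18 tested members, or 9 without the pairing. Their summed level was 9583 to 10210 CPM in YFP+ libraries and 12045 to 14341 CPM in YFP- libraries. By the same rule 7.85% of all tested genes were called lower, or 547 of 16354 without the pairing. None of the 18 was at 0 in all libraries, and their part in the Ptgs2 values was not tested.

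The balance of the cyclooxygenases was lower for Ptgs2 in every YFP+ library, a difference that did not pass after correction. On the log2 scale the ratio of Ptgs2 to Ptgs1 CPM was -0.14, 0.33, 0.42 and 0.17 in YFP+ libraries 1 to 4 and 0.51, 0.96, 1.08 and 1.21 in YFP- libraries 1 to 4. All YFP+ libraries lay below all YFP- libraries, and the ratio was lower in 4 of 4 pairs. The mean ratio was 0.20 ± 0.25 in YFP+, against 0.94 ± 0.30 in YFP- (SD, n = 4 each), a difference of -0.74. The two-sided exact permutation test gave p = 0.0286, the smallest that 4 against 4 allows, and 0.0572 after adjustment for the 2 ratios tested. Flipping signs within the 4 pairs gave an exact p of 0.125, also the smallest possible. With the other ratio at an exact permutation p of 0.714, neither test could have passed 0.05 after adjustment, whatever the size of this difference. The Ptgs1 difference entered this ratio and is not separate evidence.

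**Figure D2:**
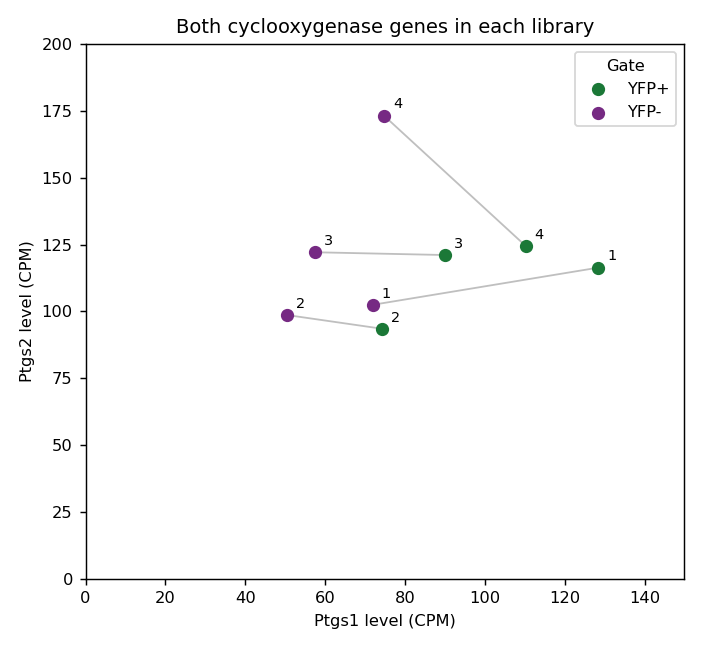
Ptgs1 level against Ptgs2 level, both in CPM, in the 4 YFP+ libraries (green) and the 4 YFP- libraries (purple), numbered by replicate and joined by number with grey lines. Every line runs to higher Ptgs1 in YFP+, with Ptgs1 at 74.2 to 128 CPM in YFP+, against 50.4 to 74.7 CPM in YFP-, and the Ptgs2 value of 173 CPM in YFP- library 4 lies apart.

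Of the terminal synthases, Ptges was slightly higher in YFP+ and the other members did not pass. Ptges encodes microsomal prostaglandin E synthase 1, which acts after cyclooxygenase 2 in prostaglandin E2 synthesis, and is on the minus strand of chromosome 2, from base 30889471 to 30929863 (ENSMUSG00000050737). Its level was 97.2, 76.5, 88.6 and 85.2 CPM in YFP+ libraries 1 to 4 and 88.5, 70.9, 66.2 and 72.6 CPM in YFP- libraries 1 to 4. The YFP+ library was higher in 4 of 4 pairs, although the groups overlapped because YFP- library 1 lay above YFP+ libraries 2 and 4. Its log2 fold change was 0.22 (SE 0.07, 95% interval 0.08 to 0.36, edgeR adjusted p = 0.0293). The call was lost without the pairs numbered 1 (edgeR adjusted p = 0.0578), 3 (0.269, with a log2 fold change of 0.16) and 4 (0.102), and without the pairing (0.308).

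Ptgis, the prostacyclin synthase, is on the minus strand of chromosome 2, from base 167191805 to 167240604 (ENSMUSG00000017969). It had 64.3, 68.3, 54.0 and 59.2 CPM in YFP+ libraries 1 to 4 and 60.4, 71.8, 53.2 and 50.9 CPM in YFP- libraries 1 to 4. The groups overlapped through most of their range, and libraries numbered 2 were the highest of both. Ptgis had a log2 fold change of 0.06 (95% interval -0.09 to 0.21, edgeR adjusted p = 0.669). Ptgds, the lipocalin-type prostaglandin D synthase, is on the minus strand of chromosome 2, from base 25466709 to 25470046, and was scarce. It had 1.75, 1.03, 2.03 and 2.43 CPM in YFP+ libraries 1 to 4 and 4.07, 2.26, 0 and 1.52 CPM in YFP- libraries 1 to 4. YFP- library 3 had 0 counts of Ptgds, which allows up to 0.13 CPM, or 3 counts, for counting error only, while YFP- library 1 had the highest value of the 8. The log2 fold change of 0.31 had a 95% interval of -2.94 to 3.56 (edgeR adjusted p = 0.921) and became -0.11 without the pairing, so no direction was detectable.

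Hpgd fell in YFP+. It encodes 15-hydroxyprostaglandin dehydrogenase, which inactivates prostaglandin E2 and other prostaglandins by oxidising their 15-hydroxyl group, and is on the plus strand of chromosome 8, from base 56294585 to 56321043 (ENSMUSG00000031613). Its level was 63.8, 61.0, 61.9 and 60.3 CPM in YFP+ libraries 1 to 4 and 93.6, 76.7, 102 and 91.4 CPM in YFP- libraries 1 to 4. The YFP+ libraries lay close together and all of them below all YFP- libraries, a pattern that 5.86% of tested genes shared. The means were 61.7 ± 1.51 CPM in YFP+, against 90.9 ± 10.5 CPM in YFP- (SD, n = 4 each). Hpgd thus had a log2 fold change of -0.55 (SE 0.07, 95% interval -0.70 to -0.41, edgeR adjusted p = 2.63e-06). It was -0.55, -0.33, -0.72 and -0.60 within the pairs numbered 1 to 4. The edgeR adjusted p was 0.00131 without the pairing, and the call held when each pair was left out (log2 fold change -0.62 to -0.50) and when each library was left out without the pairing (-0.62 to -0.49).

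Some cell type markers and the share of mitochondrially encoded counts were lower in YFP+, as Hpgd was. Of all tested genes 7.85% were called lower and 3.65% higher, or 547 and 150 of 16354 without the pairing. Intestinal epithelium, in which Hpgd is known to be expressed, had 5 of its 12 tested marker genes lower in YFP+ (4 without the pairing), with a summed level of 20.5 to 29.2 CPM in YFP+, against 44.3 to 85.5 CPM in YFP-. Most of the YFP+ sum was Lgals4, which did not pass, at a mean of 15.4 CPM in YFP+, against 17.6 CPM in YFP- (edgeR adjusted p = 0.346). Pigr, which was called lower, averaged 1.66 CPM in YFP+, against 13.1 CPM in YFP- (edgeR adjusted p = 0.0034, or 0.0529 without the pair numbered 4). Markers of enteric glia, which support gut neurons, moved further, and 9 of 10 were lower with or without the pairing, with sums of 11.1 to 16.8 CPM in YFP+, against 131 to 213 CPM in YFP-. Endothelium had 3 of 10 markers lower (1 without the pairing), with sums of 49.5 to 62.4 CPM in YFP+, against 68.2 to 98.5 CPM in YFP-. Tek was the largest part of these sums, at a mean of 27.3 CPM in YFP+, against 46.4 CPM in YFP-, and was the 1 called without the pairing. Cdh5 and Kdr were scarce, at means of 1.11 and 1.18 CPM in YFP+, against 1.39 and 1.45 CPM in YFP-. Neither passed (edgeR adjusted p = 0.662 and 0.74). Tie1, Prox1 and Vwf had positive log2 fold changes of 0.50, 0.38 and 0.30, which did not pass (edgeR adjusted p = 0.672, 0.658 and 0.44). Crypt-base fibroblast genes had 5 of 7 lower and 1 higher, with or without the pairing. Their sums, mostly C3, were 6089 to 7083 CPM in YFP+, against 7697 to 10645 CPM in YFP-. Adventitial fibroblast genes had 3 of 7 lower and 1 higher (2 and 0 without the pairing), and their sums overlapped. None of these markers was at 0 in all 8 libraries. Mitochondrially encoded genes held 4.13% to 4.86% of counts in YFP+, against 5.20% to 7.38% in YFP-. The part of these differences in the fall of Hpgd was not tested, and its log2 fold change was -0.54 when the mitochondrially encoded genes were removed before scaling.

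Among the receptors, the pair that raise cyclic AMP in response to prostaglandin E2, EP2 and EP4, were both higher in YFP+. Ptger4, which encodes EP4, is on the minus strand of chromosome 15, from base 5206661 to 5244187 (ENSMUSG00000039942). Its level was 48.3, 55.8, 51.7 and 51.2 CPM in YFP+ libraries 1 to 4 and 34.0, 44.1, 46.6 and 47.2 CPM in YFP- libraries 1 to 4. All YFP+ libraries lay above all YFP- libraries, a pattern that 3.78% of tested genes shared, although YFP+ library 1 was only just above YFP- library 4. For Ptger4 the log2 fold change was 0.28 (SE 0.08, 95% interval 0.10 to 0.45, edgeR adjusted p = 0.0302). Leaving out the pairs numbered 1 (edgeR adjusted p = 0.221, with a log2 fold change of 0.20), 2 (0.0921) or 3 (0.057) ended the call, as did dropping the pairing (0.225).

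Ptger2, which encodes EP2, is on the plus strand of chromosome 14, from base 44988195 to 45003820 (ENSMUSG00000037759). It had 15.2, 20.5, 19.9 and 22.6 CPM in YFP+ libraries 1 to 4 and 12.1, 13.4, 16.5 and 14.5 CPM in YFP- libraries 1 to 4. Only YFP+ library 1 fell among the YFP- values, and it was still above its own pair. The log2 fold change was 0.46 (SE 0.12, 95% interval 0.22 to 0.71, edgeR adjusted p = 0.0103). That call was lost without the pairs numbered 2 (edgeR adjusted p = 0.053) and 4 (0.0895) and without the pairing (0.0914).

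Neither of the other 2 receptors passed. Ptger3, which encodes EP3, the prostaglandin E2 receptor that lowers cyclic AMP, is on the plus strand of chromosome 3, from base 157566892 to 157645888. It was close to the detection limit, with 17, 30, 18 and 7 counts in YFP+ libraries 1 to 4 and 17, 4, 8 and 2 counts in YFP- libraries 1 to 4. These are 0.243 to 1.23 CPM in YFP+, against 0.0725 to 0.751 CPM in YFP-, and the groups overlapped. Its log2 fold change was 1.15 with a 95% interval of -0.47 to 2.77 (edgeR adjusted p = 0.418). Ptgir, the prostacyclin receptor, is on the plus strand of chromosome 7, from base 16906490 to 16910905, and had 5.59, 6.37, 4.42 and 2.88 CPM in YFP+ libraries 1 to 4 and 8.49, 6.32, 4.40 and 4.90 CPM in YFP- libraries 1 to 4. Within the pairs numbered 2 and 3 the values were nearly equal, and within those numbered 1 and 4 the YFP- library was higher. Ptgir's log2 fold change was -0.34 (95% interval -0.80 to 0.13, edgeR adjusted p = 0.405).

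The balance of the prostaglandin E2 receptors could be read only roughly, because 0.5 CPM was added before taking the ratio and Ptger3 lay below that in 4 of 8 libraries. The addition narrows differences between the lowest libraries. With it, the log2 ratio of Ptger3 to the sum of Ptger2 and Ptger4 was -5.82, -5.47, -6.05 and -6.64 in YFP+ libraries 1 to 4 and -5.22, -6.44, -6.23 and -6.76 in YFP- libraries 1 to 4. Both groups spanned much the same range, and the ratio was higher in YFP+ in 3 of 4 pairs. The means were -6.00 ± 0.49 in YFP+, against -6.16 ± 0.67 in YFP- (SD, n = 4 each), a difference of 0.17 (two-sided exact permutation p = 0.714, also 0.714 adjusted over the 2 ratios), which became -0.10 without both libraries numbered 2 and 0.00 with 1 CPM added in place of 0.5.

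**Figure D3:**
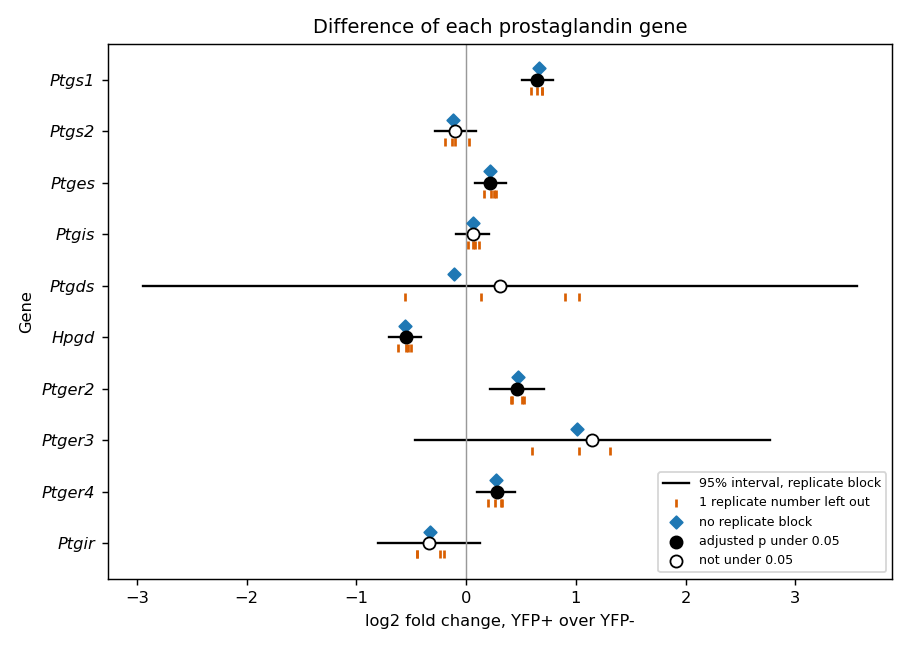
Log2 fold change of YFP+ over YFP- for each gene (black circles, filled where the edgeR adjusted p was under 0.05) with its 95% interval, beside the estimate without the replicate block (blue diamonds) and the estimates with each replicate number left out (orange ticks). The estimates for Ptgs1, near 0.65, and Hpgd, near -0.55, moved little, while the interval of Ptgds runs from -2.94 to 3.56.

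Compared per kilobase of exon, Hpgd was the highest of the 10 genes in both fractions, at 36.7 ± 0.895 CPM per kb in YFP+, against 54.0 ± 6.24 CPM per kb in YFP- (SD, n = 4 each), and its libraries did not overlap those of Ptgs2, the next gene by mean over all 8. Ptgs2, Ptgis, Ptgs1 and Ptges followed, with mean levels over all libraries of 26.0, 23.5, 21.2 and 20.5 CPM per kb. In YFP+ each of these 4 overlapped its neighbour in the order. In YFP- the lowest Ptgis library, at 19.8 CPM per kb, lay above the highest Ptgs1 library, at 19.2 CPM per kb. Ptgs1 itself stood at 25.9 ± 6.07 CPM per kb in YFP+, against 16.4 ± 2.99 CPM per kb in YFP- (SD, n = 4 each), so its mean ranked above those of Ptgs2, Ptgis and Ptges in YFP+ and below them in YFP-. In YFP+ its libraries overlapped those of all 3, and in YFP- those of Ptges alone.

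The receptors lay below the enzymes other than Ptgds. Ptger4 averaged 7.13 CPM per kb over all libraries and Ptger2 averaged 3.24 CPM per kb, and these did not overlap each other in either fraction. Ptgir averaged 1.63 CPM per kb and Ptgds 1.14 CPM per kb, with overlapping libraries in both fractions. Ptger3, at 0.0887 CPM per kb, was the lowest of the 10.

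**Figure D4:**
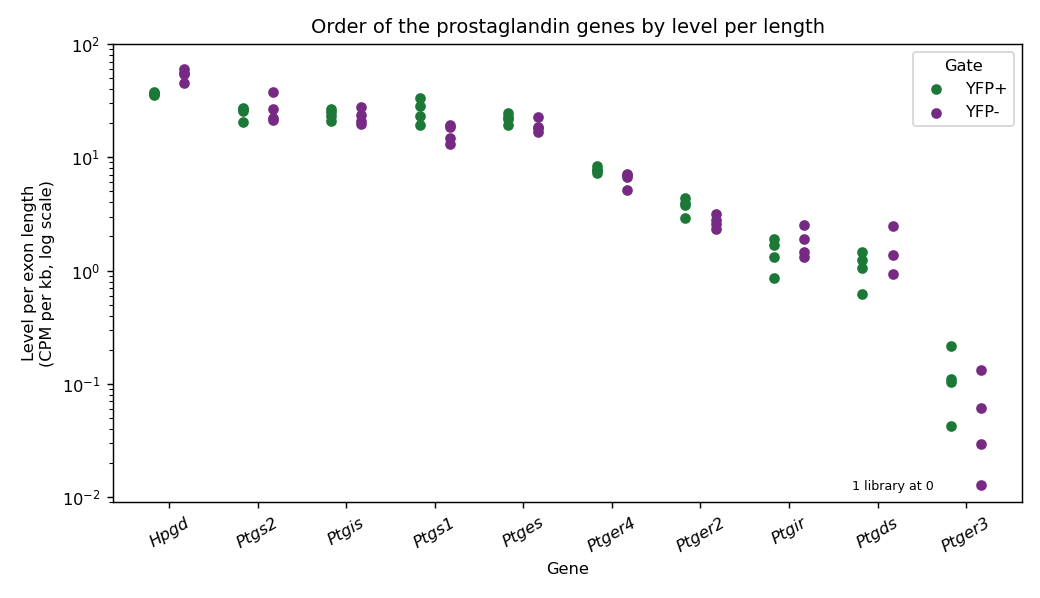
Level of each gene per kilobase of exon (CPM per kb, log scale) in the 4 YFP+ libraries (left of each pair, green) and the 4 YFP- libraries (right, purple), ordered by the mean over all libraries. Hpgd lies at 35.8 to 37.9 CPM per kb in YFP+ and 45.6 to 60.6 in YFP-, and 1 YFP- library with 0 counts of Ptgds is written at the foot because a log axis cannot show it.

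Steps before and after these genes were read from lists of 67 other pathway genes, of which 56 were tested. Together 3 of the 56 rose and 6 fell, or 0 and 3 without the pairing (5 and 7 at an unadjusted edgeR p under 0.05), and their median log2 fold change was 0.04. The same rule called 3.65% of all tested genes higher and 7.85% lower, so these shares are near those of genes in general. In arachidonate release, 1 of 10 tested genes rose and 2 fell, or 0 and 1 without the pairing, with a median of -0.01. Pla2g4a, the cytosolic phospholipase A2 that supplies arachidonic acid to both cyclooxygenases, had 194, 173, 229 and 184 CPM in YFP+ libraries 1 to 4 and 139, 133, 183 and 142 CPM in YFP- libraries 1 to 4. It was higher in 4 of 4 pairs, and the groups overlapped only because YFP- library 3 exceeded YFP+ library 2. The log2 fold change of Pla2g4a was 0.39 (SE 0.06, edgeR adjusted p = 1.57e-05), or 0.39 with an edgeR adjusted p of 0.065 without the pairing.

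Pla2g2e, a secreted phospholipase A2, fell, at 2.31 to 4.09 CPM in YFP+, against 4.69 to 7.69 CPM in YFP- (log2 fold change -1.0, edgeR adjusted p = 0.00825, or 0.109 without the pair numbered 1). Dagla, a diacylglycerol lipase that makes the endocannabinoid 2-arachidonoylglycerol, also fell, at 38.8 to 43.7 CPM in YFP+, against 44.8 to 56.1 CPM in YFP-. The log2 fold change of Dagla was -0.31 (edgeR adjusted p = 0.0123), and the call was lost without the pair numbered 2 (0.0784) or 3 (0.12) and without the pairing (0.0757).

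By edgeR 0 of the other 7 prostanoid synthases and 0 of the 5 transport and breakdown genes passed, with median log2 fold changes of 0.12 and 0.08. In each list 1 gene had an unadjusted p under 0.05, and DESeq2 and limma-voom called 0. The most abundant of them were Ptges3, the cytosolic prostaglandin E synthase and co-chaperone p23 (-0.09, edgeR adjusted p = 0.557), and Zadh2, a prostaglandin reductase (0.20, edgeR adjusted p = 0.114). Hpgds, the haematopoietic prostaglandin D synthase, and Tbxas1, the thromboxane synthase, were scarce. Hpgds lay at 0.781 to 1.87 CPM in YFP+, against 0.691 to 2.79 CPM in YFP-, and Tbxas1 at 1.67 to 2.50 CPM in YFP+, against 1.99 to 2.90 CPM in YFP-. Both genes overlapped between the fractions, and they are named here after their values were seen.

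Of the 3 other prostanoid receptors tested, 1 rose and 1 fell. Ptger1, which encodes the calcium-coupled prostaglandin E2 receptor EP1, had 20.9, 24.3, 23.7 and 16.9 CPM in YFP+ libraries 1 to 4 and 14.7, 20.9, 18.8 and 12.1 CPM in YFP- libraries 1 to 4 (log2 fold change 0.38, edgeR adjusted p = 0.0243). Ptgfr, the prostaglandin F receptor, had 3.20, 6.50, 5.14 and 5.09 CPM in YFP+ libraries 1 to 4 and 7.87, 7.50, 5.96 and 10.2 CPM in YFP- libraries 1 to 4 (log2 fold change -0.67, edgeR adjusted p = 0.046). Both moved the same way in 4 of 4 pairs while the groups overlapped, and neither passed without the pairing (edgeR adjusted p = 0.315 for Ptger1 and 0.161 for Ptgfr). Each call was also lost without the pair numbered 1, 3 or 4, with edgeR adjusted p of 0.11, 0.0912 and 0.103 for Ptger1 and 0.277, 0.0514 and 0.231 for Ptgfr. DESeq2 did not call Ptgfr (adjusted p = 0.0908). Ptgdr and Ptgdr2, the prostaglandin D2 receptors, were too low to test.

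In the lipoxygenase branch, the alternative use of arachidonic acid, 3 of 9 genes could be tested. By edgeR, DESeq2 and limma-voom 0 of these passed, and 0 had an unadjusted edgeR p under 0.05. The most abundant was Lta4h, the leukotriene A4 hydrolase (log2 fold change 0.15, edgeR adjusted p = 0.243). Of the 28 genes that relay cyclic AMP, 1 rose and 3 fell, or 0 and 2 without the pairing, with a median of -0.02. Over all tested genes 3.65% were called higher and 7.85% lower, which is near the share in this list. Pde4b, a phosphodiesterase that degrades cyclic AMP, had 175, 154, 205 and 172 CPM in YFP+ libraries 1 to 4 and 243, 266, 321 and 258 CPM in YFP- libraries 1 to 4. All YFP+ libraries lay below all YFP- libraries, and the log2 fold change was -0.62 (SE 0.06, edgeR adjusted p = 2.19e-08, or 0.00162 without the pairing).

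Pde3a, another phosphodiesterase, lay at 233 to 335 CPM in YFP+, against 348 to 451 CPM in YFP-, again with no overlap (log2 fold change -0.49, edgeR adjusted p = 0.000235, or 0.0212 without the pairing). Pde8a was the other member that fell (-0.26, edgeR adjusted p = 0.0279, or 0.147 without the pairing). Adcy5, an adenylyl cyclase that makes cyclic AMP, rose with the pairing (0.21, edgeR adjusted p = 0.0251), and not without it (0.225) or without the pair numbered 1 (0.151) or 4 (0.182). The stimulatory G protein gene Gnas did not pass (-0.01, edgeR adjusted p = 0.968).

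**Figure D5:**
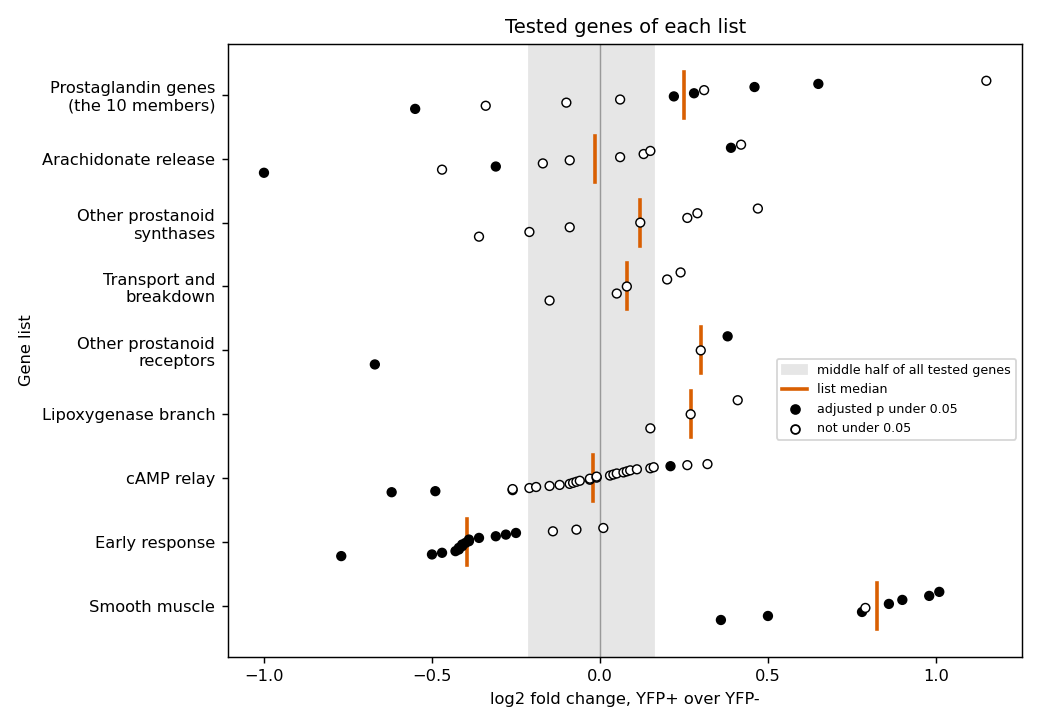
Log2 fold change of YFP+ over YFP- for every tested gene of the 10 prostaglandin genes, 6 other pathway lists, the early-response list and the smooth muscle list (filled where the edgeR adjusted p was under 0.05, orange bars giving list medians, the grey band running from the lower to the upper quartile of all tested genes). The medians of the pathway lists lie between -0.02 and 0.30, that of early-response genes at -0.40 and that of smooth muscle genes at 0.82.

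Markers of the cells that a CD45- CD31- sort could hold were set beside these results. For the counts that follow, 3.65% of all tested genes were called higher and 7.85% lower, or 150 and 547 of 16354 without the pairing. General stromal genes were abundant in both fractions, at a summed 38054 to 41941 CPM in YFP+, against 42575 to 50021 CPM in YFP-, with 2 of 9 higher and 5 lower, or 0 and 2 without the pairing. Smooth muscle genes rose in 7 of 8, or in 2 without the pairing, at 362 to 878 CPM in YFP+, against 187 to 465 CPM in YFP-, none of them at 0 in all libraries. Their part in the higher Ptgs1, Ptges, Ptger2 and Ptger4 was not tested. Of subepithelial fibroblast genes 4 of 9 rose and 1 fell, or 2 and 0 without the pairing. Of crypt-base fibroblast genes 1 of 7 rose and 5 fell, and of adventitial fibroblast genes 1 of 7 rose and 3 fell, or 0 and 2 without the pairing. Mural genes had 1 of 7 higher and 2 lower, genes of interstitial cells of Cajal 2 of 5 higher and 1 lower (1 and 1 without the pairing), and 1 of 2 mesothelial genes was lower. Of the Cajal cell genes, Gja1 and Etv1 were the 2 that rose. Kit and Ano1 averaged 0.487 and 1.49 CPM in YFP+, against 1.71 and 2.19 CPM in YFP-, and did not pass. The lower mesothelial gene was Krt19, and 5 of that list's 6 genes averaged under 1 CPM. These 2 lists therefore say little about those cells. Blood cell genes were detected in spite of the CD45 gate, at 42.3 to 326 CPM in YFP+, against 77.3 to 282 CPM in YFP-, and 0 of 8 passed by edgeR, DESeq2 or limma-voom, with 0 at an unadjusted edgeR p under 0.05. Most of that sum was Igha and Jchain, transcripts of antibody-secreting cells, while Ptprc, which encodes CD45, lay at 0.535 to 6.22 CPM in YFP+, against 0.907 to 5.66 CPM in YFP-. Mast cell genes summed to at most 2.14 CPM in YFP+, against 0.575 CPM in YFP-, and none was high enough to test. Of tuft cell genes, which mark an epithelial cell known to express Ptgs1 and Hpgds, 0 of 3 tested rose and 1 fell, or 0 without the pairing. Most of their level was Dclk1 (160 CPM in YFP+, against 157 CPM in YFP-) and Avil (41.9 CPM in YFP+, against 52.6 CPM in YFP-). The other 4 of the 7 list genes averaged under 1 CPM and were not tested, 1 of them at 0 in all libraries. The list therefore says little about tuft cells.

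Of the 10 genes, 5 had an adjusted p under 0.05 in the authors' deposited table, beside 9.36% of the 18748 genes with one. The log2 fold changes of YFP+ over YFP- in the authors' deposited table were 0.659 for Ptgs1, 0.232 for Ptges, -0.545 for Hpgd, 0.471 for Ptger2 and 0.285 for Ptger4. A DESeq2 fit with both replicate number and group matched them to 5e-04 or closer over 30791 genes. Exons of Ptgs1, Ptgis, Ptger2 and Ptger4 overlap genes annotated on the opposite strand, by up to 1015 bases for Ptger4, and the strand setting of the counting is not stated. Gm15937, the gene behind that overlap, had 0 counts, and the highest of the overlapping genes was Ttc33, next to Ptger4, at 25.6 ± 2.64 CPM in YFP+, against 22.04 ± 3.82 CPM in YFP- (SD, n = 4 each).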

How the data were processed

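RNA was measured in 8 libraries, 4 per YFP gate, prepared, per the labels' protocols, with a stranded pico-input kit for total RNA. The submitters' processing notes name DESeq2, featureCounts 2.0.1, STAR 2.7.3a and cutadapt 3.4, and the build GRCm38 (mm10), but no DESeq2 version or strand setting. In the deposited table, raw counts stand for each gene and library as whole numbers with no normalisation. It also holds the authors' deposited log2 fold changes and adjusted p-values for YFP+ over YFP-. Its 8 normalised columns were not used.

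The members and lists were chosen with earlier results of these data known. Groups came from the description. The analysis used edgeR 4.0.16 (R 4.3.3). Of 53801 genes filterByExpr kept 16354, and 23010 were at 0 throughout. Libraries were scaled by TMM, and the quasi-likelihood F test was fitted with the replicate number as a block, with Benjamini-Hochberg adjustment over all genes tested at a threshold of 0.05. Deviations of log2 CPM from group means correlated at 0.60, 0.64, 0.38 and 0.57 between libraries with equal numbers and at -0.42 to 0.05 between others (5200 genes averaging above 5). Subtracting group means pushes the values between other numbers below 0 where those between equal numbers are positive, so the contrast is partly built in. The numbers were taken as pairs, as planned from earlier results of these data, although no label says what they share. Ratios used CPM plus 0.5 and exact permutation tests over libraries. All pairs of libraries within a group differed by more than sampling noise, and each was counted as 1 replicate.

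Named genes were all 10 members, up to 2 called genes per direction and the most abundant gene of each other pathway list, the 2 most abundant of each cell type list and Ltbr. Some are not given singly here. Tbxas1, Hpgds, Ptgdr, Ptgdr2, Pde8a, Ttc33, Ptprc, Gm15937, Tie1, Prox1, Vwf, Cdh5, Kdr, Kit and Ano1 stand outside this rule and were chosen after their values were seen. Alternatives were no block, other scalings (RLE, upper quartile), filters (none, or 1 CPM in 4 libraries), DESeq2 1.42.0, limma-voom (limma 3.58.1), removal of mitochondrially encoded genes and of each replicate. Exon lengths and coordinates, 1-based, are from GENCODE mouse release M21 (53706 of 53801 identifiers matched), and promoters are from RefSeq.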

Additional observations from a re-analysis of the deposited data

Results flagged for a closer look

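Values of 1 library lay far from the other 3 of its group in 5 of the 108 sets examined. Chance alone would give about 1 in 20, here 5.4. None of the 10 prostaglandin genes was among them. Gnas was high in YFP+ library 2 (510 CPM), Kcna1, a glial marker, in YFP+ library 2 (0.781 CPM), Egr1, an early-response gene, in YFP- library 4 (3003 CPM), and Sox6, a subepithelial fibroblast marker, in YFP- library 2 (456 CPM). YFP- library 4 also had a high total for its group (28688906 counts). The highest Ptgs2 value, 173 CPM, came from that same library, although CPM are already scaled for the total.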

How the results depend on the processing

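All 5 calls on the prostaglandin genes held under RLE and upper-quartile scaling, both filters, DESeq2, limma-voom and removal of mitochondrially encoded genes, which each gave 4 higher and 1 lower. With no replicate block, edgeR called 0 members higher (4 at an unadjusted p under 0.05) and 1 lower, and over all genes 150 were higher and 547 lower, against 597 and 1283 with the replicate block. Leaving out a replicate number with the block gave 2 members higher and 1 lower each time, and 331 to 500 genes higher and 851 to 1126 lower over all genes. Leaving out 1 library with no replicate block gave 0 to 1 members higher, 1 lower, 88 to 156 genes higher and 339 to 521 lower. The difference in the log2 Ptgs2 to Ptgs1 ratio ran from -0.78 to -0.65 without a replicate, and that of the Ptger3 ratio from -0.10 to 0.43. Some estimates that had not passed changed sign, including Upk3b and Igha (both -0.50 with all libraries and the block), Sox6 (-0.32) and Ptgds (0.31). Ptgds was -0.11 with no replicate block, -0.19 by limma-voom and -0.56 to 1.03 or -0.52 to 0.53 without a replicate. Ptgs2 ran from -0.19 to 0.03 (-0.21 to 0.09 with no replicate block), Gnas from -0.03 to 0.02 (-0.04 to 0.01), Dclk1 from -0.06 to 0.09 (-0.03 to 0.10), Upk3b from -1.27 to 0.31 (-1.24 to 0.09) and Jchain from -0.49 to 0.12 (-0.56 to 0.10). With no replicate block, Sox6 ran from -0.69 to 0.12 and Igha from -0.84 to 0.09. The median log2 fold change of all genes was 0.01 under each scaling. Depth limits Ptger3 and Ptgds, at 2 to 30 and 0 to 92 counts per library.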
